A study of Mus musculus with 10 samples.

Results

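The nuclear-encoded subunits of the respiratory chain and the ATP synthase were compared between hearts of 5 saline-injected mice and hearts of 5 mice 24 h after lipopolysaccharide (LPS, a bacterial cell wall component injected to model sepsis). The members were taken by symbol as the protein-coding genes of complexes I to IV and of the ATP synthase. This rule uses no value of the genes, but it was chosen with earlier results of these data known. The rule found 86 of the 54532 rows of the authors' count table, for 85 symbols, and 83 of them had enough reads to be tested. All 10 mice were C57BL/6 and 8 weeks old, the tissue was whole heart, and a dose, sex or route of injection was not given in the sources used here. Each library carries its own number and nothing else ties it to a cage or a day, so the p-values measure the spread between these samples.

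Complex I takes electrons from NADH, complex II (succinate dehydrogenase) from succinate, and both pass them to ubiquinone. Complex III hands them to cytochrome c and complex IV to oxygen, and the proton gradient built on the way drives the ATP synthase. Heart muscle makes most of its ATP this way, and cardiomyocytes are packed with mitochondria. Most subunits are encoded in the nucleus, a core set is encoded in mitochondrial DNA, and several complex IV subunits exist as a muscle form and a form made in most other tissues.

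The total count was between 14607969 and 17012372 per library, and mitochondrially encoded genes took 22.3% to 31.2% of the reads. The TMM scaling factors lay between 1.00 and 1.15 in saline and between 0.829 and 0.958 in LPS libraries, so they did not overlap between the groups. As a share of all reads before scaling, the 83 tested members took a mean of 4.11% in saline and 3.58% in LPS hearts (SD 0.194 and 0.504, n = 5 each). Markers of cardiomyocytes were abundant in every library: the 9 genes of that list summed to between 42361 and 50840 CPM (read counts scaled to library size with TMM factors) in saline and between 44341 and 49339 CPM in LPS hearts, and none of the 9 passed the test. All 6 endothelial markers fell, from a summed 877 to 1828 CPM in saline to 482 to 652 CPM in LPS hearts. Across all tested genes 21.0% fell, and 39.9% passed the test in either direction. In whole-heart RNA, fewer cells of a type and less RNA per cell cannot be told apart.

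Most subunit mRNAs of the chain differed little between the groups, in a comparison where many other genes did. With edgeR's quasi-likelihood test and p-values adjusted over all 13864 tested genes, no subunit rose and 2 of 83 fell: Ndufa4l2 and Cox4i2, alternative isoforms of complex IV subunits. Across the tested genes 39.9% were called (5533), 18.9% rose and 21.0% fell, while 2.41% of the members were called. At an unadjusted p under 0.05, 5 members were higher and 2 were lower, 7 of 83, where 47.9% of all genes passed. No member had all 5 LPS libraries above all 5 saline libraries (14.3% of all tested genes did), and 1 member, Ndufa4l2, had all of them below (14.1% of all tested genes).

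Over the 83 members the median log2 fold change was 0.04, beside -0.02 over all tested genes. Outside Ndufa4l2 and Cox4i2, the other 81 members lay between -0.26 (Cox7a1) and 0.26 (Atp5k) on the log2 scale. For 73 of 83 members the 95% interval of the fold change stayed within 1.5-fold in either direction, against 5722 of 13864 genes tested and 1916 of the 2980 genes whose mean reached 50 CPM. The 10 members with wider or shifted intervals were Ndufa4l2, Cox4i2, Cox6b2, Cox7a1, Cox8b, Atp5e, Atp5k, Ndufa2, Ndufa12 and Uqcr11. Among the 2980 abundant genes the median was 0.14, with 970 that rose and 242 that fell. A missed threshold does not show that a subunit was equal in both groups. The interval gives the size that these 10 libraries still allow under TMM scaling, and it holds no uncertainty of the scaling. Upper quartile and total count scaling shifted the median of all genes by -0.16 and -0.27.

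**Figure D1:**
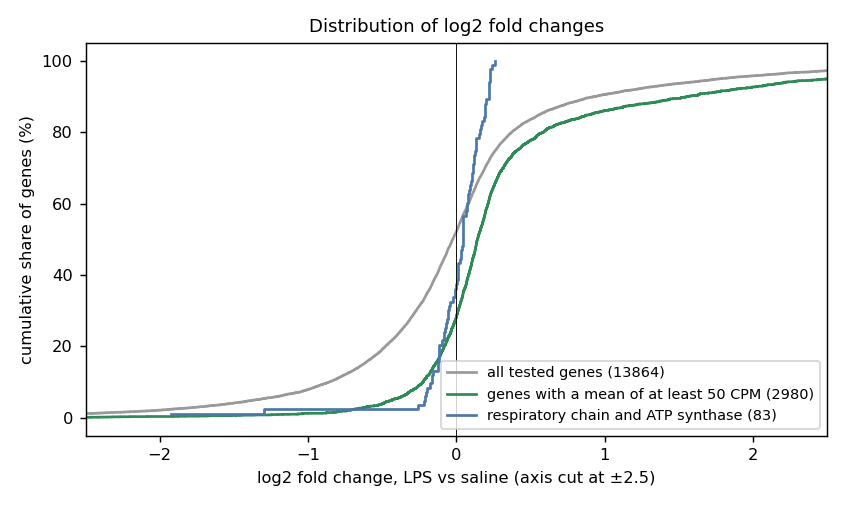
Cumulative share of genes (y axis, percent) by log2 fold change of LPS against saline (x axis) for the 83 tested respiratory chain and ATP synthase genes, the 2980 genes whose mean reached 50 CPM and all 13864 tested genes. The curve of the subunits climbs between -0.26 and 0.26, with 2 genes far to the left, while the other curves reach past the edge of the axis on both sides.

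Levels per kilobase of gene length spanned a wide range. The mean over the 10 libraries was 1299 CPM per kilobase for Atp5a1 and 1229 for Atp5b, which form the catalytic head of the ATP synthase, 1105 for Cox6a2, a muscle isoform of complex IV, and 896 for Cox4i1, the complex IV isoform of most tissues. At the low end stood Cox6b2, an isoform known from testis, at 0.679 CPM per kilobase, followed among the named members by Cox4i2 at 8.66 and Atp5s at 9.39. Members below the limit for testing were Cox7b2, with 2 reads in 1 saline library and 1 read in each of 3 LPS libraries, Cox8c, with no read, and a second row under the symbol Atp5o, with no read.

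**Figure D2:**
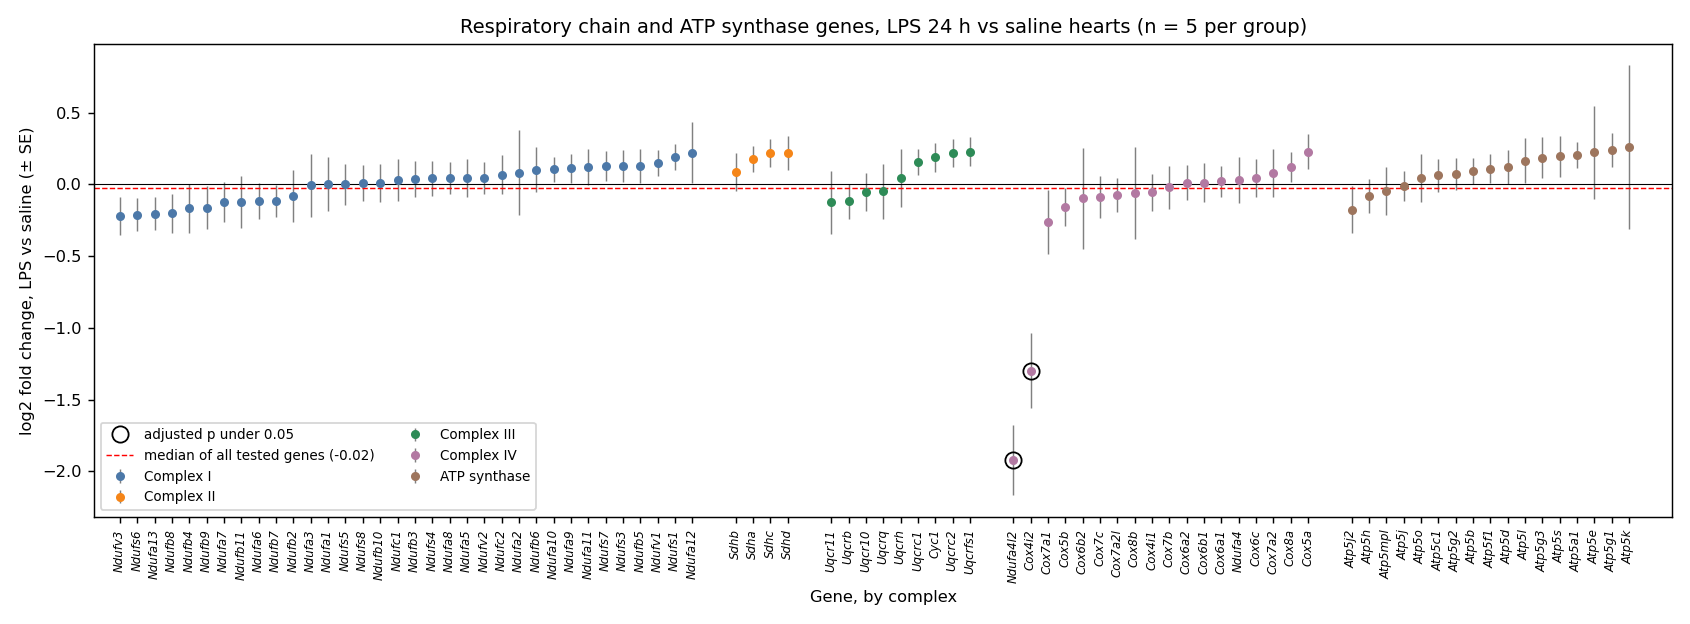
Log2 fold change of LPS against saline with its standard error (y axis) for the tested genes that are reported here, ordered within each complex (x axis), with n = 5 hearts per group. Circled points passed an adjusted p of 0.05; they are Ndufa4l2 at -1.92 and Cox4i2 at -1.30, and the dashed line is the median of all tested genes at -0.02.

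Ndufa4l2 encodes a paralogue of Ndufa4, a subunit first assigned to complex I and now placed in complex IV, and it is known as a gene induced by hypoxia and made in pericytes. Its coding sequence (264 bases, GRCm38 chr10:127514982-127516499, plus strand) is shown above that of Ndufa4 (249 bases, chr6:11900535-11907365, minus strand), because the 2 genes differed in their response. Capitals mark bases that differ from the aligned partner or have none there.
Ndufa4l2: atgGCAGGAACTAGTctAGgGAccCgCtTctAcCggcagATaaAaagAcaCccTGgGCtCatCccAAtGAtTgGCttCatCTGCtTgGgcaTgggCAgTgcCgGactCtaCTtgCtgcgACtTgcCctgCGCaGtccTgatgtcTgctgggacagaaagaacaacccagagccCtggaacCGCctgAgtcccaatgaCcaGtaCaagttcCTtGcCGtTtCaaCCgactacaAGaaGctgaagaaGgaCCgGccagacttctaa
Ndufa4: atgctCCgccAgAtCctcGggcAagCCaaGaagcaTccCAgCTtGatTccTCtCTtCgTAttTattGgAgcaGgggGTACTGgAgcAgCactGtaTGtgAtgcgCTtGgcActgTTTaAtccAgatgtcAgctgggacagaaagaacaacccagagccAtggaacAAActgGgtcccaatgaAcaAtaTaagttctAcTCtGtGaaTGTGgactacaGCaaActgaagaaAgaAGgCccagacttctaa
Over 242 aligned positions 71.9% were identical, and the longest identical run was 28 bases.

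In saline hearts Ndufa4l2 had 18.5, 23.5, 23.1, 24.0 and 16.8 CPM (replicates 1 to 5), and in LPS hearts 9.7, 4.7, 6.1, 3.8 and 3.5 CPM. Every LPS heart was below every saline heart, with LPS replicate 1 the highest of its group. The log2 fold change was -1.92 (SE 0.24, 95% interval -2.45 to -1.39, edgeR adjusted p = 5.66e-05). Over the 21 other settings tried it stayed between -2.21 and -1.78, with the highest adjusted p at 0.000427. Ndufa4 itself had 432 to 584 CPM in saline and 343 to 712 CPM in LPS hearts, with a log2 fold change of 0.03 (SE 0.16, edgeR adjusted p = 0.898). The groups overlapped for Ndufa4. Ndufa4l2 shares 32 bases with Shmt2 on the other strand, and whether reads were counted by strand was not given in the sources used here.

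Cox4i2 encodes the isoform of complex IV subunit 4 that is known from lung and hypoxic cells, whereas Cox4i1 is the form of most tissues. Cox4i2 had 8.7, 11.7, 10.9, 11.7 and 5.5 CPM in saline and 6.5, 3.5, 3.1, 4.0 and 2.5 CPM in LPS hearts. The groups overlapped at 1 point, since saline replicate 5 lay below LPS replicate 1. Its log2 fold change was -1.30 (SE 0.26, 95% interval -1.86 to -0.73, edgeR adjusted p = 0.00139), between -1.58 and -1.17 over the 21 other settings, with the highest adjusted p at 0.00622. Cox4i1 had 1194 to 1524 CPM in saline and 946 to 1582 CPM in LPS hearts, with a log2 fold change of -0.06 (SE 0.13, edgeR adjusted p = 0.765). The coding sequences of this pair were 70.8% identical over 489 aligned positions, with no shared run longer than 14 bases.

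**Figure D3:**
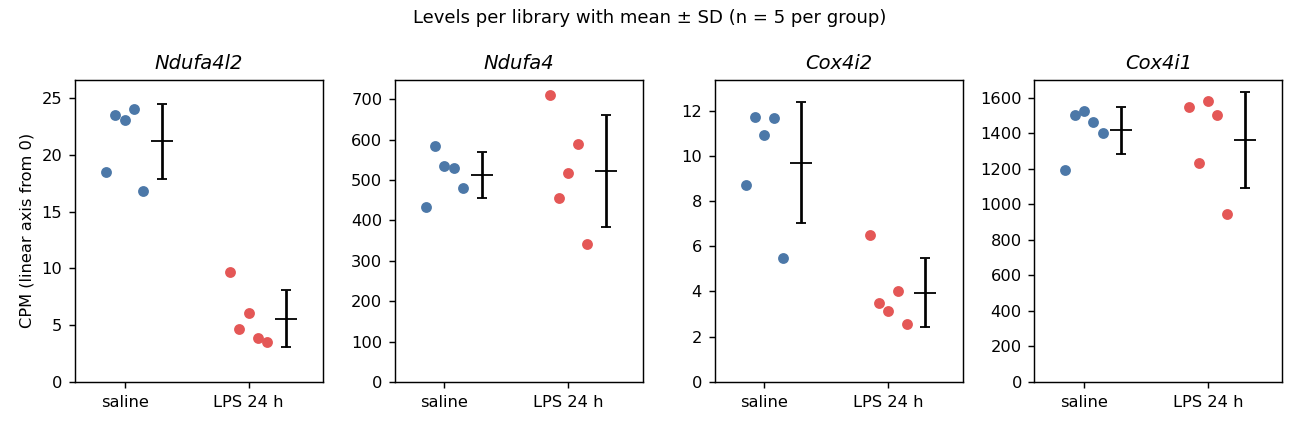
CPM per heart (y axes, linear from 0) of Ndufa4l2, Ndufa4, Cox4i2 and Cox4i1 in 5 saline and 5 LPS hearts, with the mean and SD of each group as a bar to the right of its points. Ndufa4l2 fell from 16.8 to 24.0 CPM in saline to 3.5 to 9.7 CPM in LPS hearts, while the points of Ndufa4 and Cox4i1 overlap between the groups.

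Of the markers of pericytes and smooth muscle, 2 of 5 tested fell, where 21.0% of all tested genes fell. Kcnj8, a channel subunit typical of pericytes, fell from 29.7 to 58.1 CPM in saline to 1.29 to 2.28 CPM in LPS hearts (log2 fold change -4.70, edgeR adjusted p = 2.15e-08). Pdgfrb, a receptor typical of mural cells, had 54 to 84.7 CPM in saline and 32.0 to 40.2 CPM in LPS hearts (-1.06, edgeR adjusted p = 1.19e-05). Of the other tested markers of that list, Rgs5 (-0.28), Myh11 (-0.17) and Acta2 (-0.12) did not pass, and Tagln had too few reads for the test. The list summed to 1031 to 1314 CPM in saline and to 806 to 1014 CPM in LPS hearts. Other cell types had markers that fell too: 2 of 6 for fibroblasts (Pdgfra and Lum) and 2 of 6 for macrophages (Csf1r and Lyz2). Saline replicate 5, the saline heart with the lowest Ndufa4l2 and Cox4i2, also had the lowest Kcnj8 and Pdgfrb of its group. It was lowest for endothelial markers as well, among them Kdr (115 CPM, others 320 to 382) and Cdh5 (190 CPM, others 304 to 345). The neutrophil markers S100a8 (3.15 CPM, others 0.112 to 0.446) and S100a9 (9.33 CPM, others 0.365 to 1.17) were highest there. Not every marker followed: Pdgfra, which fell, was highest of the saline hearts in replicate 5 (63.6 CPM). The part of these markers, and of the endothelial ones, in the result was not tested.

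Ratios of isoforms within a heart cancel the scaling of the library. They do not cancel a trend with gene length within a library where the genes of a pair differ in length. Cox7a1 has 535 bases and Cox7a2 944, and Cox8b has 360 and Cox8a 545. The part of gene length in the ratios was not tested. For 6 pairs the log2 ratio of read counts was compared between the groups by an exact permutation test over all assignments of the hearts to groups, two-sided, with p-values adjusted over the 6 pairs. In 3 pairs the ratio differed beyond the spread between hearts: Ndufa4l2/Ndufa4, Cox4i2/Cox4i1 and Cox7a1/Cox7a2. The ratio of Ndufa4l2 to Ndufa4 was 0.0414 ± 0.0040 (SD, n = 5) in saline and 0.0105 ± 0.0026 (SD, n = 5) in LPS hearts, a log2 difference of -2.01 (exact p = 0.00794, adjusted p = 0.0238), with no overlap. The ratio of Cox4i2 to Cox4i1 was 0.00686 ± 0.00167 (SD, n = 5) and 0.00290 ± 0.000812 (SD, n = 5), a log2 difference of -1.24 (exact p = 0.0159, adjusted p = 0.0317). Saline replicate 5 (0.00393) overlapped LPS replicate 1 (0.00423).

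The 3rd pair involves genes whose own levels did not pass the test. Cox7a1 is the heart and skeletal muscle form of complex IV subunit 7a, and Cox7a2 is the form made in most tissues. Their coding sequences (chr7:30184231-30185967, plus strand, and chr9:79755547-79759657, minus strand) are shown because a count ratio rests on reads being told apart between them. Capitals again mark bases that differ from the aligned partner.
Cox7a1: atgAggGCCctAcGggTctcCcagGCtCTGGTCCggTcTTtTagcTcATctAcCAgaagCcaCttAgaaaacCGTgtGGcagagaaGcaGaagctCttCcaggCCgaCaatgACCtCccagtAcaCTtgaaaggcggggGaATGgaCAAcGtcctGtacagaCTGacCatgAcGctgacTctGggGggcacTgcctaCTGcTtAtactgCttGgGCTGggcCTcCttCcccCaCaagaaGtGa
Cox7a2: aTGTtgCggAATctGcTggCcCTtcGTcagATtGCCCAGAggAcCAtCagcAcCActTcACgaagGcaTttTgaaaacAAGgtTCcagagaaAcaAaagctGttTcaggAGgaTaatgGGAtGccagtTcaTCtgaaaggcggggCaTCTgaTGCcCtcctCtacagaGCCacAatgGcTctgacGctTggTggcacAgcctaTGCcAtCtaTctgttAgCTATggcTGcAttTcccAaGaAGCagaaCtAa
They were 64.5% identical over 242 aligned positions, and the longest identical run was 12 bases.

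In saline hearts the ratio of Cox7a1 to Cox7a2 reads was 2.29, 2.19, 2.22, 2.26 and 2.27, a narrow range. In LPS hearts it was 2.17, 1.498, 1.56, 1.72 and 1.75, so that 4 hearts lay well below the saline hearts and replicate 1 just below them. The mean was 2.24 ± 0.0390 (SD, n = 5) in saline and 1.74 ± 0.263 (SD, n = 5) in LPS hearts, a log2 difference of -0.38 (exact p = 0.00794, adjusted p = 0.0238). As a share of the reads of both genes, Cox7a1 took 68.7% to 69.6% in saline and 60.0% to 68.4% in LPS hearts.

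Taken alone, Cox7a1 had 330, 512, 513, 470 and 441 CPM in saline and 595, 272, 324, 433 and 266 CPM in LPS hearts. LPS replicate 1 was the highest of all 10 hearts, and 3 other LPS hearts were the lowest. The log2 fold change was -0.26 (SE 0.22, edgeR adjusted p = 0.392). Without LPS replicate 1 it was -0.48, with an edgeR adjusted p of 0.0345, in a range of adjusted p from 0.0345 to 0.664 over the 21 settings. Cox7a2 had a log2 fold change of 0.08 (SE 0.17, edgeR adjusted p = 0.752).

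The muscle form of subunit 8, Cox8b, and its partner Cox8a gave a ratio of 3.40, 4.34, 5.18, 3.65 and 3.43 in saline and 5.59, 3.33, 3.35, 2.73 and 2.06 in LPS hearts. LPS replicate 1 was again the highest of its group and here the highest of all. The log2 difference was -0.29 (exact p = 0.286, adjusted p = 0.429). Without LPS replicate 1 it was -0.49, with an exact permutation adjusted p of 0.0159, in a range of adjusted p from 0.0159 to 0.724 over 13 settings. For Cox6a2, the muscle form of subunit 6a, over Cox6a1 the log2 difference was -0.04 (exact p = 0.746, adjusted p = 0.746), with ratios of 8.61 to 11.6 in saline and 7.97 to 10.4 in LPS hearts. Cox6b2 over Cox6b1 gave -0.20 (exact p = 0.460, adjusted p = 0.552), and Cox6b2 itself had at most 1.11 CPM in any heart.

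**Figure D4:**
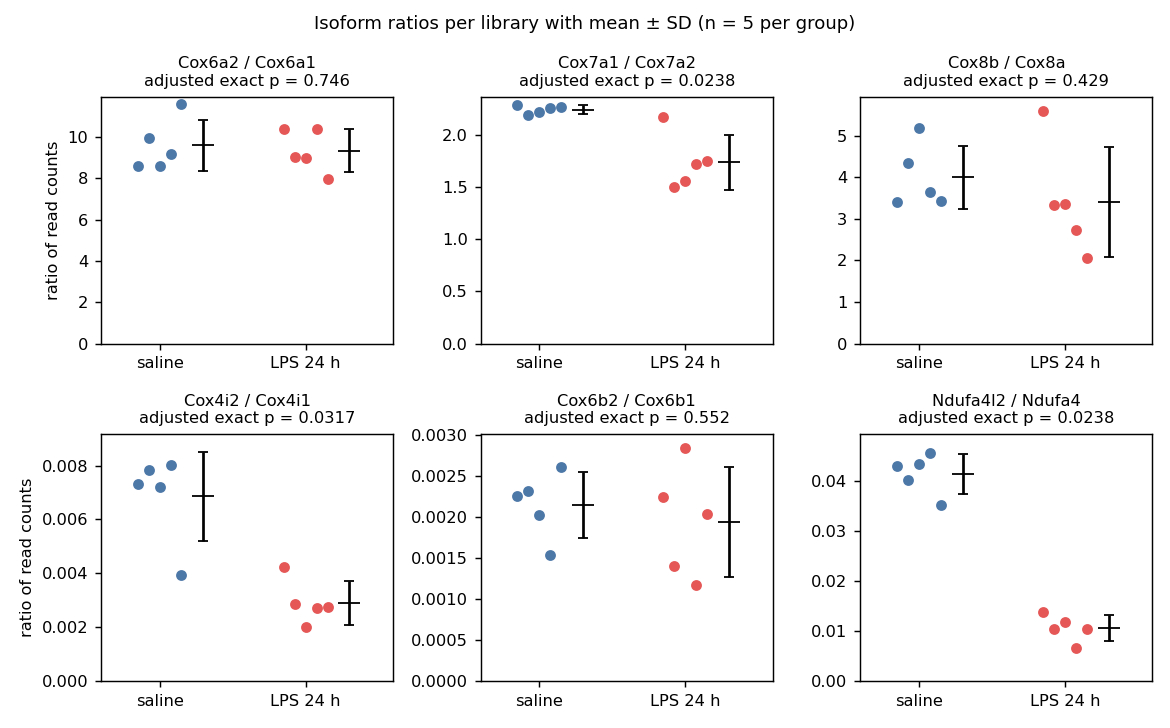
Ratio of read counts per heart (y axes, linear from 0) for 6 isoform pairs in 5 saline and 5 LPS hearts, with the mean and SD of each group as a bar beside its points and the adjusted p of the exact permutation test above each panel. For Cox7a1/Cox7a2 the saline hearts lie between 2.19 and 2.29 and the LPS hearts between 1.498 and 2.17; for Cox6a2/Cox6a1 the groups overlap.

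Promoter sequences from RefSeq (GRCm38.p6) were matched by symbol for 66 of the 85 symbols, and 200 bases, from 250 to 51 bases before the start, were searched on both strands. The palindrome at the centre of the NRF-1 motif, CGCATGCG, was found in 4 of 66 member promoters (6.06%) and in 1.08% of 27025 promoters of all genes. The ETS motif CCGGAAG was found in 7.58% of member promoters and 4.58% of all, CCAAT in 36.4% and 31.8%, and the E-box CANNTG in 54.5% and 62.5%. N stands for any base, and matches of different motifs may overlap. The windows of Cox7a1 (chr7:30183921-30184120, plus strand) and Cox7a2 (chr9:79759904-79760103, minus strand) are shown because this pair changed its ratio. Capitals mark matches to CCAAT on the other strand, written ATTGG.
Cox7a1: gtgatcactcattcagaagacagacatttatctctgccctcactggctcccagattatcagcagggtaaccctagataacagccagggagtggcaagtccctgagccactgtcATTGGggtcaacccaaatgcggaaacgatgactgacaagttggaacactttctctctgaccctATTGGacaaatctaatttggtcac
Cox7a2: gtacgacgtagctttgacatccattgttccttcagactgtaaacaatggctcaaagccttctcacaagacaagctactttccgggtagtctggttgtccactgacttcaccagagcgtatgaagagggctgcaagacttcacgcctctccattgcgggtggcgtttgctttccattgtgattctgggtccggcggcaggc
The Cox7a1 window held CCAAT and E-box matches, and neither window held the NRF-1 or ETS letters.

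Complex I was represented by 35 tested members with a median log2 fold change of 0.04, and none passed the test. Its 7 core subunits, which carry the flavin and the iron-sulphur clusters, were all positive, between 0.01 and 0.19, with a median of 0.13. Ndufs1, the largest of them, had 644, 592, 606, 633 and 748 CPM in saline and 677, 774, 714, 818 and 699 CPM in LPS hearts. All LPS hearts exceeded all saline hearts except saline replicate 5, and the log2 fold change was 0.19 (SE 0.09, edgeR adjusted p = 0.103).

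The 28 accessory subunits of complex I, which surround the core, had a median of 0.00, with 15 positive and 13 negative values between -0.22 and 0.22. Ndufs6, needed for late steps of assembly, had 143, 165, 156, 175 and 166 CPM in saline and 158, 112, 132, 171 and 122 CPM in LPS hearts. The groups overlapped, and the log2 fold change was -0.21 (SE 0.12, edgeR adjusted p = 0.170). Ndufa13, an accessory subunit, was at -0.20 (edgeR adjusted p = 0.191), and Ndufb11 at -0.12 (edgeR adjusted p = 0.636). Ndufa13 shares 8379 bases with Yjefn3 on the same strand, which had 749 reads over all libraries, so their reads may not be separable.

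Complex II has only 4 subunits, all encoded in the nucleus, and all 4 were positive with a median of 0.20, the highest of the 5 complexes. Under total count scaling this median was -0.08. Sdhc, a membrane anchor, had 302, 305, 297, 288 and 334 CPM in saline and 360, 365, 379, 390 and 284 CPM in LPS hearts. LPS replicates 1 to 4 were above every saline heart and replicate 5 below every one. The log2 fold change was 0.22 (SE 0.10, edgeR adjusted p = 0.0823), the lowest adjusted p among the members that were not called. Sdhd, the other anchor, was at 0.22 (edgeR adjusted p = 0.156), the flavoprotein gene Sdha at 0.17 (edgeR adjusted p = 0.142) and the iron-sulphur protein gene Sdhb at 0.09 (edgeR adjusted p = 0.636).

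In complex III the median over 9 members was 0.04. Uqcrfs1, the Rieske iron-sulphur protein, had 720, 703, 709, 721 and 731 CPM in saline and 950, 889, 861, 875 and 625 CPM in LPS hearts. As for Sdhc, 4 LPS hearts were above the whole saline range and replicate 5 was below it (log2 fold change 0.23, SE 0.10, edgeR adjusted p = 0.0912). Uqcrc2, a core protein, was at 0.22 (edgeR adjusted p = 0.0829) and Cyc1, cytochrome c1, at 0.19 (edgeR adjusted p = 0.154). The 5 accessory subunits had a median of -0.05, and Uqcrb, which binds near the ubiquinone site, was at -0.12 (edgeR adjusted p = 0.474).

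Complex IV, with 18 tested members including Ndufa4 and Ndufa4l2, had a median of -0.04. With 1 library left out this median ranged from -0.10 (without LPS replicate 1) to 0.09 (without LPS replicate 5), and it was also positive, at 0.03, without saline replicate 2 or without LPS replicate 2. Without LPS replicate 1 the medians of complex I (-0.06) and complex III (-0.13) were negative too. Both genes that fell belong to it. Cox5a, a subunit on the matrix side, was the highest at 0.23 (SE 0.12, edgeR adjusted p = 0.163), with 250 to 268 CPM in saline and 207 to 364 CPM in LPS hearts. Of the muscle isoforms, Cox6a2 was at 0.01 (edgeR adjusted p = 0.956) and Cox8b at -0.06 (SE 0.32, edgeR adjusted p = 0.901).

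The ATP synthase had 17 tested members with a median of 0.11, of which 13 were positive. The 5 subunits of its F1 head were all positive, with a median of 0.12. Atp5a1, the alpha subunit, had 3872, 3489, 3714, 3698 and 4164 CPM in saline and 4283, 4608, 4697, 4655 and 3534 CPM in LPS hearts. LPS replicates 1 to 4 again lay above every saline heart, and the log2 fold change was 0.20 (SE 0.09, edgeR adjusted p = 0.0931). Atp5b, the catalytic beta subunit, was at 0.09 (edgeR adjusted p = 0.462), and Atp5g1, which encodes the proton-carrying c-ring, at 0.24 (SE 0.12, edgeR adjusted p = 0.131). Atp5s, coupling factor B, was at 0.20 (edgeR adjusted p = 0.305).

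Grouped by role, the core, redox and F1 subunits had a higher median log2 fold change than the other members. This grouping was made after the values were seen and has no test. The 7 core subunits of complex I, all 4 subunits of complex II, the 4 core and redox subunits of complex III and the 5 F1 subunits were 20 in all. They include the membrane anchors Sdhc and Sdhd of complex II. Outside the 20 are the 3 c-ring genes, which were also positive under TMM scaling. All 20 were positive under TMM scaling, with a median of 0.15, whereas 10 were positive under upper quartile scaling and 0 under total count scaling. The 61 other members, without Ndufa4l2 and Cox4i2, had a median of 0.01, with 32 positive and 29 negative values. Under total count scaling the medians were -0.12 for the 20 and -0.27 for the 61. The 5 members with a positive change at an unadjusted p under 0.05 (Ndufs1, Sdhc, Uqcrc2, Uqcrfs1 and Atp5a1) all belong to the 20. Because the 20 were grouped with these values known, that overlap is no separate evidence for the grouping.

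Single LPS hearts weighed on these values. Over the 81 members other than Ndufa4l2 and Cox4i2, the median log2 deviation from the saline mean was 0.25 in LPS replicate 1, -0.04 in replicate 2, 0.07 in replicate 3, 0.16 in replicate 4 and -0.43 in replicate 5. LPS replicate 5 was the lowest of all 10 hearts for 66 of the 81 members (81.5%), against 18.5% of the 10094 genes whose mean reached 5 CPM. LPS replicate 1 was the highest for 42 of the 81 (51.9%), against 13.8% of those genes. The SD of log2 CPM was larger in LPS than in saline hearts for 75 of the 81 members, with medians of 0.30 and 0.13. Over the 10094 genes it was larger in LPS hearts for 6453, with medians of 0.21 and 0.16.

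The number of subunits called as higher depended on LPS replicate 5. Without it, 14 members rose, where 19.1% of all genes rose: Atp5a1, Atp5d, Atp5g1, Atp5g3, Cox5a, Cyc1, Ndufb5, Ndufs3, Ndufv1, Sdhc, Sdhd, Uqcrc1, Uqcrc2 and Uqcrfs1. Of these, 10 belong to the 20 core, redox and F1 subunits, a group made after the values were seen. Without saline replicate 5, 4 members rose (Ndufs1, Sdha, Sdhc and Uqcrc2; 21.0% of all genes). Leaving out LPS replicates 1 and 5, chosen after the data were seen, 14 rose, beside 17.3% of all genes. Without LPS replicate 1, 4 members fell (Ndufa4l2, Cox4i2, Cox7a1 and Ndufb8), beside 20.4% of all genes.

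Gene length moved with the values of the single hearts. Members of at most 1000 bases (21 genes) had a median deviation of 0.42 in LPS replicate 1 and -0.49 in LPS replicate 5, and members longer than 2000 bases (30 genes) 0.18 and -0.25. Among all genes whose mean reached 5 CPM, short genes moved the same way, with 0.28 and -0.38. Long genes did not move as the long members did and had -0.03 and 0.02. The widest example was the short gene Atp5k, a membrane subunit of the ATP synthase, with 54.8, 60.1, 56.5, 40.3 and 41.1 CPM in saline and 158.8, 51.0, 47.5, 30.6 and 14.5 CPM in LPS hearts. Across the 81 members the Spearman correlation of gene length with the log2 fold change was 0.32, against -0.04 across the 10094 genes, where genes are not independent replicates and share the same 10 libraries. With the deviation in LPS replicates 1 to 5, the correlation was -0.39, 0.43, 0.36, 0.44 and 0.44 across the 81 members. Across the 10094 genes it was -0.17, 0.003, -0.13, -0.08 and 0.19. The 20 core, redox and F1 subunits, grouped after the values were seen, had a median length of 2208 bases and the 61 others one of 1237 bases. With a trend on gene length taken out of each library, 10 members rose (Atp5a1, Cox5a, Cyc1, Ndufs1, Sdha, Sdhc, Sdhd, Uqcrc1, Uqcrc2 and Uqcrfs1), 9 of them among the 20, beside 22.7% of all genes.

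**Figure D5:**
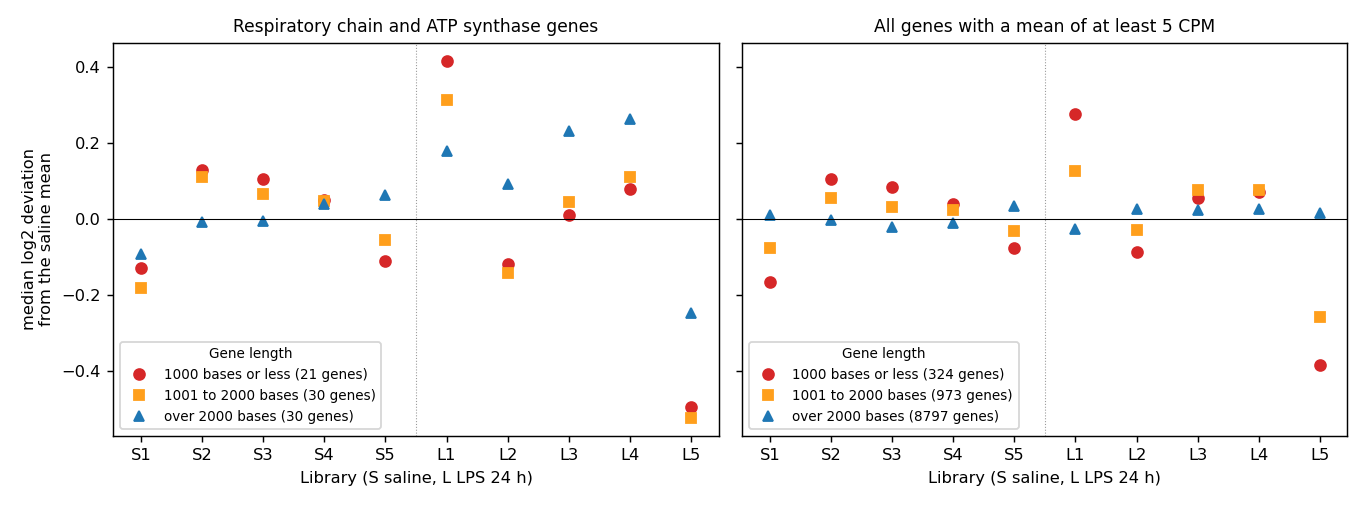
Median log2 deviation from the saline mean (y axis) in each library (x axis, S saline and L LPS, replicates 1 to 5) for 3 classes of gene length, among the 81 subunits left after Ndufa4l2 and Cox4i2 (left) and among all genes whose mean reached 5 CPM (right). Short genes sit at 0.42 and 0.28 in LPS replicate 1 and at -0.49 and -0.38 in LPS replicate 5, while long genes on the right stay near 0.

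Scaling and test also set the count. DESeq2 called 5 members as higher (Atp5a1, Ndufs1, Sdhc, Uqcrc2 and Uqcrfs1; 21.5% of all genes), and RLE scaling 2 (Sdhc and Uqcrc2; 20.4% of all genes). Upper quartile scaling shifted the median of all genes by -0.16 and called 6 members as lower (31.8% of all genes), and total count scaling shifted it by -0.27 and called 20 (41.6% of all genes). Relative to the median of all genes, the members' median stayed between 0.06 and 0.07 under these scalings. Ndufa4l2 and Cox4i2 fell under every one of the 21 settings.

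Of the 13 subunits encoded in mitochondrial DNA, 3 rose and 0 fell under TMM scaling, with a median of 0.32, where 18.9% of all tested genes rose. Before scaling, mitochondrially encoded genes took 24.6% to 28.4% of the reads in saline and 22.3% to 31.2% in LPS hearts, so the groups overlapped. Total count scaling shifted the median of all genes by -0.27, and results for these 13 genes under other scalings are not reported here. The complex I subunit mt-Nd3 rose from 117 ± 26.8 (SD, n = 5) to 176 ± 28.3 CPM (log2 fold change 0.58, edgeR adjusted p = 0.00867). The other genes that rose were mt-Nd5 (0.52, edgeR adjusted p = 0.0429) and mt-Co1, the catalytic subunit of complex IV (0.29, edgeR adjusted p = 0.0405). Whether they differed as a set from the nuclear-encoded subunits was not tested.

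Of the genes that assemble the complexes or make and carry ubiquinone and cytochrome c, 67 were tested, 9 rose and 1 fell, with a median of 0.11, where 18.9% of all tested genes rose and 21.0% fell. In complex IV assembly, 3 of 22 rose: Cox18, which inserts a complex IV subunit into the membrane, from 7.16 ± 0.757 to 17.2 ± 3.25 CPM (1.26, edgeR adjusted p = 1.47e-05), the copper chaperone Cox17 (0.79, edgeR adjusted p = 0.0197) and Cox15, which makes heme a (0.58, edgeR adjusted p = 0.000173). Surf1, another assembly factor, fell (-0.26, edgeR adjusted p = 0.0433). Foxred1 was the 1 of 16 complex I assembly genes that rose (0.36, edgeR adjusted p = 0.00519), and Tmem70 the 1 of 5 for the ATP synthase (0.35, edgeR adjusted p = 0.00474). None of 4 complex II and 6 complex III assembly genes was called.

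In ubiquinone synthesis and mobile carriers, 4 of 14 rose, where 18.9% of all tested genes did. Coq10b, which binds ubiquinone, went from 28.0, 30.2, 32.0, 32.2 and 31.6 CPM in saline to 56.1, 68.5, 81.8, 77.7 and 60.7 CPM in LPS hearts, with no overlap (1.16, edgeR adjusted p = 2.41e-06). Pdss1, which makes the side chain of ubiquinone, was at 0.59 (edgeR adjusted p = 0.000938) and Coq8b at 0.57 (edgeR adjusted p = 0.0125). The 3 genes that the spelling of the rule leaves out were not called: the subunit genes Ndufab1 and Usmg5 and the ATP synthase inhibitor gene Atpif1.

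Of 6 regulators of mitochondrial genes 1 fell, where 21.0% of all tested genes did. It was Ppargc1b, a coactivator, from 17.1 ± 4.20 (SD, n = 5) to 6.02 ± 1.63 CPM (SD, n = 5, log2 fold change -1.51, edgeR adjusted p = 4.38e-05). Ppargc1a (0.14), Nrf1 (-0.13), Gabpa (-0.17), Tfam (0.09) and Esrra (0.10) did not pass.

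The authors' deposited table of Reactome terms lists the term for respiratory electron transport with 5 of 61 genes, all up, and an adjusted p of 1. By identifier those 5 genes in the authors' deposited table are Coq10b, mt-Nd3, mt-Nd5, mt-Nd6 and Yjefn3, which that table names Ndufa13. None of the 5 is among the 86 members.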

How the data were processed

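Hearts of 10 mice were sequenced after an Illumina TruSeq preparation, per the labels' protocols. The authors deposited read counts per gene for 54532 identifiers, with FPKM and gene length beside them. FPKM deposited by the authors were used in no test. Bowtie 0.12.2 and mm9 are listed in the submitters' processing notes. A counting tool, annotation or strand setting was not given in the sources used here. Gene coordinates matched GENCODE M21 (GRCm38) for 53499 of 54532 identifiers and for 80 of 86 members, so GRCm38 is used. In 2 other tables deposited by the authors, the LPS columns are named for 3 h, whereas the labels give 24 h; those 10 columns were not used. The p-values of the Reactome table are those deposited by the authors.

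Counts were tested with edgeR 4.0.16 in R 4.3.3: TMM scaling, filterByExpr (minimum count 10, minimum total 15), quasi-likelihood F-test with robust dispersion, Benjamini-Hochberg adjustment over 13864 genes and a threshold of 0.05. "Rose" and "fell" are used only past it. Isoform ratios used counts plus 0.5 read and an exact permutation test that went through all 252 assignments. SciPy 1.17.1 gave the t quantiles of the 95% intervals. The median deviation of a gene set in a library is that of log2 CPM, with no prior count, from the saline mean of log2 CPM. A prior count of 2 entered only the length trend and the check of pairing. The fit and the permutation test were tested on simulated data. Total counts were 14607969 to 17012372 per library. Members, lists, isoform pairs and tests were chosen with earlier results of these data known. The text names members past the threshold, in each complex the 2 with the highest CPM per kilobase and the 3 with the smallest p, both genes of each isoform pair, and untested members; list genes are named where they passed, at most 3 per direction. For 1 member taken by this rule no value is reported here. Ndufa2, Ndufa12, Atp5e, Atp5k, Uqcr11, the members called only under another setting, and the markers were named after their values were seen. Pseudogene rows with similar symbols (12) held 8595 reads, 0.141% of the members' reads, so reads of near-identical copies may be split. Replicate numbers were checked for pairing: same-numbered libraries correlated between -0.07 and 0.18, and the mice are separate animals, so no block was used. Alternatives tried were other scalings (RLE, total count, upper quartile, TMM without mitochondrially encoded genes), DESeq2 1.42.0, voom of limma 3.58.1, no filter or one of at least 1 CPM, a replicate block, other prior counts for ratios and leaving out each library. Leaving out LPS replicates 1 and 5 and removing a length trend were added after seeing the data.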

Additional observations from a re-analysis of the deposited data

Results flagged for a closer look

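In groups of 5, a library was marked where its gap to the nearest other library was large against the whole range of its group. Of 72 groups of named members and ratios, 4 were marked, and chance marks about 1 in 20. The marks on single genes belong to LPS replicate 5, which was the lowest of all hearts for most members. For Sdhc it had 284 CPM, where the other LPS hearts had 360 to 390 CPM. For Cyc1 it had 607 CPM, where the others had 819 to 900 CPM. For Uqcrfs1 it had 625 CPM, where the others had 861 to 950 CPM. The other marked value is the ratio of Cox4i2 to Cox4i1 in saline replicate 5, which was 0.00393, where the other saline hearts had 0.00720 to 0.00801.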

How the results depend on the processing

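The number of the 83 subunits that rose was 0 with TMM scaling, 2 under RLE scaling and 5 with DESeq2. Of all tested genes 18.9%, 20.4% and 21.5% rose under these settings. With the length trend removed 10 subunits rose, and without LPS replicates 1 and 5 14 rose, beside 22.7% and 17.3% of all genes. Both of these settings were added after seeing the data. With 1 library left out it ranged from 0 to 14, with 4 without saline replicate 5 and 14 without LPS replicate 5. The number that fell was 2 with TMM scaling, where 21.0% of all tested genes fell. It was 6 under upper quartile and 20 under total count scaling, where 31.8% and 41.6% of all genes fell. With 1 library left out it was 2 to 4, the highest without LPS replicate 1, where 20.4% of all genes fell. Total count scaling gave a median log2 fold change of -0.24 for complex I, -0.076 for complex II, -0.23 for complex III, -0.32 for complex IV and -0.17 for the ATP synthase, and upper quartile scaling 0.040 for complex II. With 1 library left out, the median ranged from -0.06 to 0.14 for complex I, from -0.13 to 0.19 for complex III and from -0.10 to 0.09 for complex IV, each lowest without LPS replicate 1 and highest without LPS replicate 5. The log2 difference of Cox8b/Cox8a ranged from -0.49 to -0.13.

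The replicate numbers do not pair the mice. With the replicate number as a block 0 members rose and 2 fell, while 5418 of all 13864 tested genes were called. Within replicate numbers, an exact sign-flip test of 5 differences cannot give a p below 0.0625, so no adjusted p could pass, and the replicate block left the log2 differences at -0.38 for Cox7a1/Cox7a2, -1.24 for Cox4i2/Cox4i1 and -2.01 for Ndufa4l2/Ndufa4. With 1 library left out these 3 ratios kept their direction and an exact adjusted p of at most 0.0476. Cox7b2 and Cox8c had few reads or none, and a difference was not detectable in them at this depth.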
